A study of Saccharomyces cerevisiae and Saccharomyces cerevisiae S288C with 30 samples.

Results

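The splicing of budding yeast introns was compared between 8.5 h and 7.5 h after transfer to sporulation medium. The comparison took every splicing event with a PSI value in all 4 libraries of these times, which was 202 of the 405 events in the deposited table. The cells were the SK1 strain of Saccharomyces cerevisiae, a background used for sporulation because its cultures enter meiosis readily, and no mutation or drug is given for either time. Each time was sampled in 2 biological replicates, as part of a course at 0, 3, 6, 7.5, 8.5 and 12 h. Total RNA was extracted with hot acid phenol, depleted of ribosomal RNA with Ribo-Zero Gold and made into strand-specific libraries that shared a NextSeq lane. RNA came from whole cultures, and the labels give no meiotic stage or degree of synchrony.

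PSI is a fraction between 0 and 1, written to 2 decimals. The sources used here do not define it. Low values mark introns that are known to be spliced well, as in ACT1, the actin gene, which had 0.06 and 0.07 at 7.5 h and 0.06 and 0.08 at 8.5 h. PSI was therefore taken as a reading of intron retention. Over the annotated introns tested here, its median was 0.915 and 0.94 in the libraries labelled dbr1, for the debranching enzyme. In a separate SK1 culture the median was 0.30 and 0.34. Whether PSI also counts excised intron RNA was not tested, so changes below are given as PSI. For events at an alternative 3′ splice site (A3SS) or at an alternative 5′ splice site (A5SS), the sources do not say which form a higher PSI stands for, so no direction of splicing is read from them. No read counts accompany the values, and the depth of each is unknown.

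Introns are removed by the spliceosome, which recognises the 5′ splice site, the branch point and the 3′ splice site. Few yeast genes carry an intron, and ribosomal protein genes are the largest class that does. In meiosis the factor Mer1 promotes the splicing of a small group of meiotic transcripts with weak 5′ splice sites. Other introns take part in feedback, as in DBP2 and YRA1, whose products act in the assembly and export of mRNA and lower their own expression through the intron.

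Of the 202 events, 113 were annotated introns, 73 were introns outside the annotation, 13 were A3SS and 3 were A5SS events. The number of values per library was 273 and 280 at 7.5 h and 231 and 234 at 8.5 h, the lowest among the 20 Ribo-Zero libraries. The other 16 held 312 to 374 values. The median absolute difference between the replicates of a time was 0.02 at both times over the 202 events.

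Values were lost between 6 and 7.5 h in every class of event, and between 7.5 and 8.5 h mostly in ribosomal protein genes. Of their 91 annotated introns, 91 had both replicate values at 0 h, 88 at 3 h, 89 at 6 h, 54 at 7.5 h, 23 at 8.5 h and 79 at 12 h. The other 188 annotated introns had 106, 133, 151, 100, 101 and 133 at the same times. They too were fewer at 7.5 h than at 6 h and more numerous at 12 h, and differed in the step from 7.5 to 8.5 h. Between 7.5 and 8.5 h, 31 of 54 ribosomal protein introns lost at least 1 value, against 10 of 100 other annotated introns, and no test was made of these counts. The rule behind a missing value is not given, so whether it reflects low expression was not tested. In RNA from whole cultures, fewer cells of a kind and less RNA per cell cannot be told apart.

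The ribosomal protein introns that stayed measurable were not a neutral sample of the class. The 23 that kept both values had a median PSI of 0.23 at 7.5 h, and the 31 that did not had 0.125. Values for ribosomal protein introns below therefore describe the measurable minority. In the opposite direction, 5 annotated introns had no value at 7.5 h and both at 8.5 h, those of ECM9, LSM7, PCC1, TFC3 and UBC8. LSM7, a subunit of the ring that binds U6 snRNA, had 0.29 and 0.30 at 8.5 h.

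**Figure D1:**
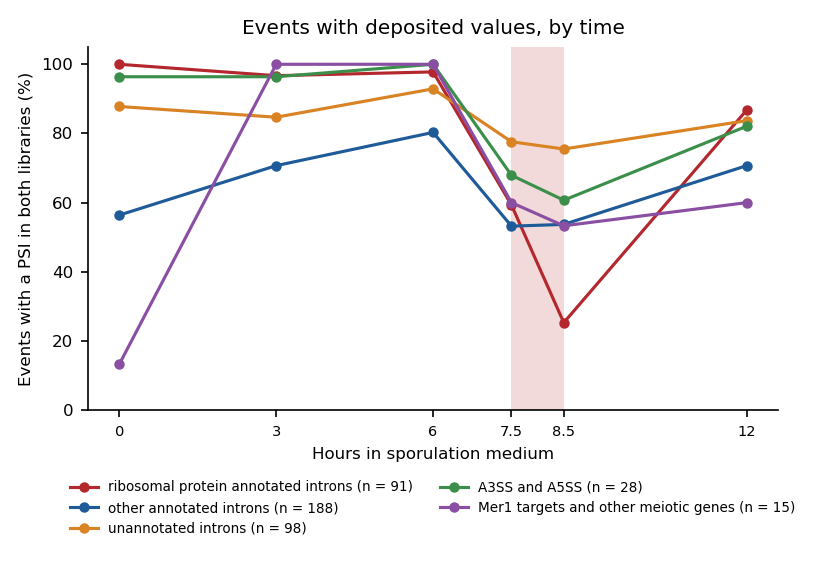
Annotated introns of ribosomal protein genes and other event classes by time in sporulation medium (x axis, h), as the percent of each class with a PSI value in both replicates (y axis). Ribosomal protein introns stood at 59.3% at 7.5 h, 25.3% at 8.5 h and 86.8% at 12 h, while other annotated introns stood at 53.2% and 53.7% at 7.5 and 8.5 h.

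The presence of values for meiotic transcripts was compared between the labelled times. Of 15 events in the meiotic genes listed here, 2 had both values at 0 h and 1 in the separate SK1 culture, against 15 at 3 h and 15 at 6 h. At 7.5 h 9 had both values, at 8.5 h 8 did and at 12 h 9 did. The counts set 0 h apart from 3 and 6 h, and cannot tell 7.5 h from 8.5 h.

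Whether PSI moved within this hour was asked with limma on its log2 odds, with the spread taken from all 20 Ribo-Zero libraries. These include libraries labelled dbr1 and +rap. PSI rose in 3 events, which is 1.49% of the 202, and fell in 4, which is 1.98%. A further measure, with no test, was whether both libraries of 1 time lay beyond both of the other. By it 33 events were higher at 8.5 h (16.3%) and 35 were lower (17.3%). Where nothing changes, 2 libraries lie beyond 2 others in 1 direction or the other with probability 0.333, ties aside. Both shares together are near that, so a lack of overlap is by itself no sign of change in the events below. An unadjusted p under 0.05 was found in 28 of the 202. There was no common direction, with 84 means higher, 84 lower and 34 equal, and a median difference of 0 over all events and over annotated introns. Most differences were small, with 91 events within 0.02 and 35 apart by 0.1 or more, of which 19 were higher and 16 lower. Many events had little room to move upward, since 74 had a mean of at least 0.95 at 7.5 h.

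**Figure D2:**
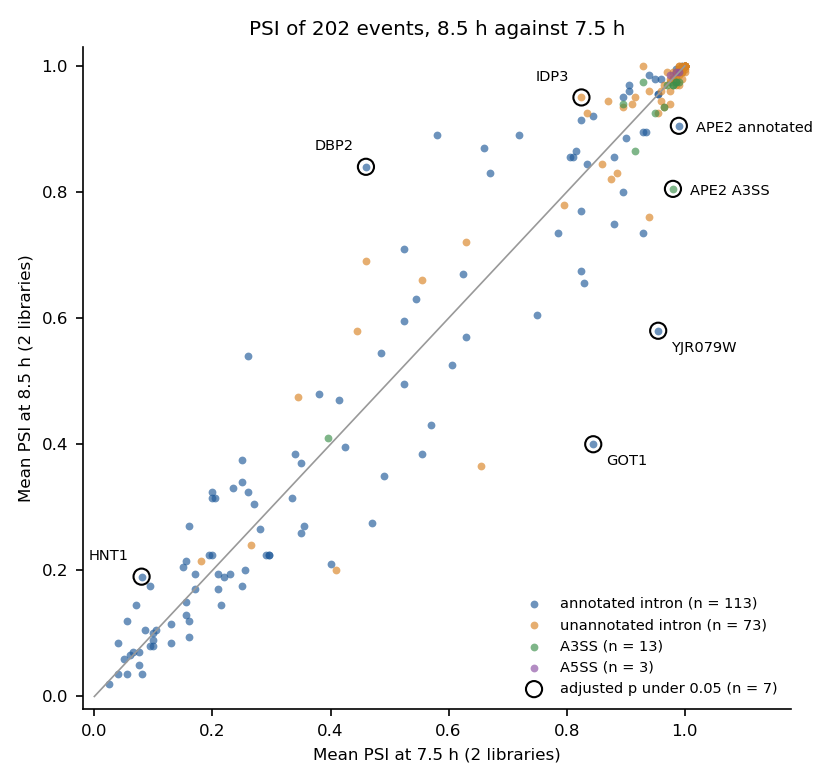
Mean PSI of each of the 202 events at 8.5 h (y axis) against 7.5 h (x axis), 2 libraries each, coloured by event type, with rings on the 7 events past an adjusted p of 0.05. Points crowd the diagonal and its upper end, and DBP2, YJR079W and GOT1 lie farthest from it among the ringed events.

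DBP2 had the largest rise. It encodes a DEAD-box RNA helicase that acts in mRNA assembly and export, and its annotated intron of 1002 bp lies inside the gene on chromosome XIV, 414912 to 415913 of sacCer3. Its PSI was 0.42 and 0.50 at 7.5 h and 0.79 and 0.89 at 8.5 h. The times did not overlap, and the mean went up by 0.38 (2.61 log2 odds, SE 0.52, adjusted p = 0.0126). Both later values also lay above those at 6 h, 0.27 and 0.29, and at 12 h, 0.26 and 0.30.

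An intron outside the annotation that overlaps IDP3, the gene of the peroxisomal isocitrate dehydrogenase, also rose in PSI. It is not contained in the gene. It spans chromosome XIV, 616067 to 616412. Its PSI was 0.85 and 0.80 at 7.5 h and 0.94 and 0.96 at 8.5 h (1.83 log2 odds, SE 0.39, adjusted p = 0.0174). PSI was high at both times, and at 12 h it stood at 0.86 and 0.80.

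HNT1, which encodes a nucleotide-binding hydrolase of the histidine triad family, rose from a low level. Its annotated intron is on chromosome IV, 239399 to 239509. PSI was 0.10 and 0.06 at 7.5 h and 0.21 and 0.17 at 8.5 h, above every library at 0, 3 and 6 h, where it lay between 0.09 and 0.16. The rise was 1.36 log2 odds (SE 0.31, adjusted p = 0.0273), and at 12 h the values were 0.71 and 0.67.

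These 3 rises depended on the libraries in the fit. None passed when the spread was estimated from the 12 time course libraries alone, or from the 4 libraries compared (adjusted p = 0.16 for DBP2, 0.134 for IDP3 and 0.257 for HNT1). IDP3 was also lost when PSI itself was tested (adjusted p = 0.0878). DBP2 and IDP3 also missed the threshold without replicate 2 of 7.5 h or without replicate 2 of 8.5 h, with highest adjusted p values of 0.145 and 0.155, and HNT1 held only when the library left out was replicate 1 of 7.5 h, with a highest value of 0.214.

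YJR079W carried the clearest fall. Its function is not established, and its annotated intron of 705 bp lies on chromosome X, 580348 to 581052. PSI was 0.95 and 0.96 at 7.5 h and 0.57 and 0.59 at 8.5 h, and it fell by 3.68 log2 odds (SE 0.35, adjusted p = 2.73e-05). The 8.5 h libraries stood alone in the course, as every library at 0, 3, 6 and 12 h had 0.99 or 1. The call passed under every alternative run.

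GOT1 encodes a membrane protein of transport between the endoplasmic reticulum and the Golgi. Its annotated intron of 82 bp is on chromosome XIII, 854817 to 854898. PSI was 0.86 and 0.83 at 7.5 h and 0.37 and 0.43 at 8.5 h, the largest difference of all events (mean lower by 0.445). It fell by 2.95 log2 odds (SE 0.68, adjusted p = 0.0321) from a peak, since the values were 0.13 and 0.08 at 6 h and 0.56 and 0.37 at 12 h. It missed the threshold without any 1 of the 4 libraries (adjusted p from 0.10 to 0.155) and in the 12 time course libraries.

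The other 2 falls were both in APE2, an aminopeptidase gene, and share the start of the intron on chromosome XI, so they are not separate observations. Another APE2 event that overlaps both was tested and did not pass. The A3SS event, 155272 to 155636, had 0.97 and 0.99 at 7.5 h and 0.77 and 0.84 at 8.5 h (PSI fell by 3.12 log2 odds, SE 0.40, adjusted p = 0.000397). The annotated intron, 155272 to 155654, had 0.99 and 0.99 at 7.5 h and 0.93 and 0.88 at 8.5 h (PSI fell by 2.48 log2 odds, SE 0.38, adjusted p = 0.00184). Neither event overlapped between the times. Both calls held without each library in turn. The annotated intron, whose mean fell by 0.085, would not pass a rule that also asks for a difference of 0.1. Both calls were lost when PSI itself was tested in place of log2 odds, or when only the 4 libraries were fitted.

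**Figure D3:**
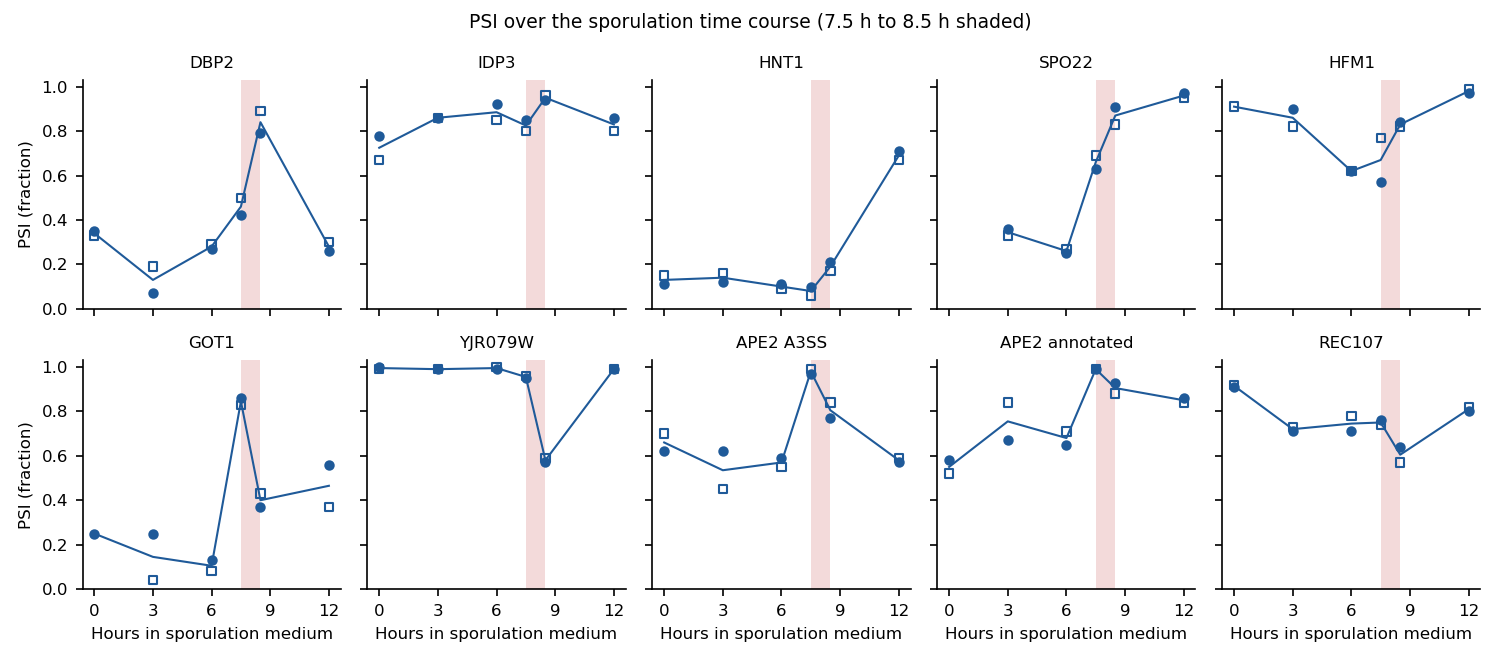
PSI of 10 named events in each library (filled circles for replicate 1, open squares for replicate 2) and their mean (lines) across the 6 times in sporulation medium (x axis, h), with 7.5 and 8.5 h shaded. YJR079W leaves its level near 1 at 8.5 h only, GOT1 peaks at 7.5 h, and HNT1 is far higher at 12 h, at 0.71 and 0.67, than at 8.5 h.

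Several events were large in size and missed the threshold. An event outside the annotation, on chromosome XIII, 610808 to 611036, overlaps SIP18, which encodes a protein of desiccation tolerance. It had 0.46 and 0.46 at 7.5 h and 0.74 and 0.64 at 8.5 h (adjusted p = 0.0903). An event outside the annotation in OSH2, an oxysterol-binding protein, lay on chromosome IV, 417222 to 417626, at 0.66 and 0.65 and then 0.42 and 0.31 (adjusted p = 0.0581). Another on chromosome IV, 1406993 to 1407231, lies in no gene and had 0.94 and 0.94 at 7.5 h and 0.73 and 0.79 at 8.5 h (adjusted p = 0.0564). None of the 3 overlapped between the times. When PSI itself was tested, SIP18 and OSH2 passed. Both missed in the 12 time course libraries (adjusted p = 0.101 for SIP18 and 0.0532 for OSH2) and in the 4 libraries alone (0.19 and 0.135).

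Replicates limited other differences. The annotated intron of KIN28, the kinase of the general transcription factor TFIIH, had 0.25 and 0.55 at 7.5 h and 0.22 and 0.20 at 8.5 h. MSS51, a translational activator of mitochondrial COX1, had 0.78 and 0.88 and then 0.76 and 0.55. MIN10 had 0.31 and 0.51 and then 0.16 and 0.24. In each the groups did not overlap, yet the replicates of 1 time lay farther apart than the nearest values of the 2 times, and the adjusted p was 0.341 for MSS51, 0.368 for MIN10 and 0.545 for KIN28. RCF3, a respiratory supercomplex factor, had closer replicates, 0.48 and 0.46 against 0.30 and 0.25 (adjusted p = 0.368). EFM5, a lysine methyltransferase, had 0.90 and 0.96 against 0.81 and 0.66 in its annotated intron (adjusted p = 0.368).

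Events outside the annotation that overlap FMP45 and YNL194C, related genes of cortical membrane proteins, had similar differences that did not pass. FMP45 had 0.35 and 0.34 at 7.5 h and 0.50 and 0.45 at 8.5 h (adjusted p = 0.631), and YNL194C had 0.50 and 0.39 and then 0.54 and 0.62 (adjusted p = 0.553). At 12 h FMP45 was at 0.96 and 0.97 and YNL194C at 0.97 and 0.98.

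**Figure D4:**
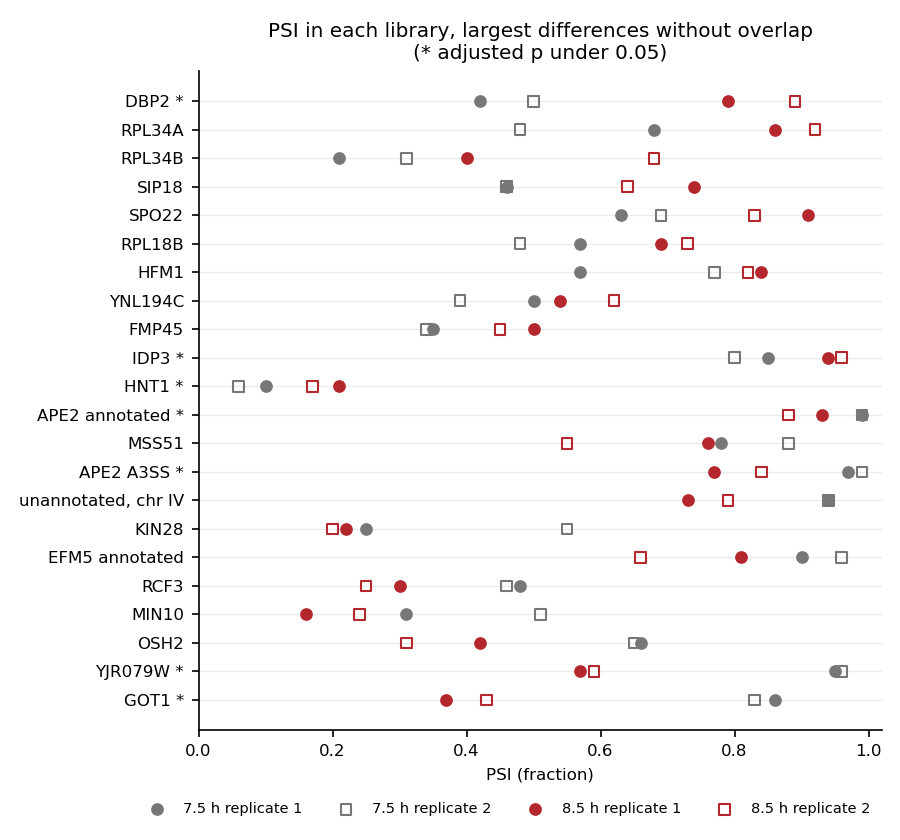
PSI in each of the 4 libraries for the named events with large differences, 7.5 h in grey and 8.5 h in red, with stars on the 7 events past an adjusted p of 0.05. KIN28 and MIN10 show replicates of 7.5 h spread wider than the gap between times, while YJR079W shows tight pairs at 0.95 and 0.96 against 0.57 and 0.59.

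Mer1 targets were measured in all 5 of their events, and none passed limma's test, with 1 at an unadjusted p under 0.05, beside 28 of 202 over all events. Their median difference was 0.02, beside 0 over all events, with 3 above and 1 below without overlap, where all events had 16.3% above and 17.3% below. SPO22, which acts in meiotic synapsis and crossover formation, came nearest. Its intron on chromosome IX, 225810 to 225899, had 0.63 and 0.69 at 7.5 h and 0.91 and 0.83 at 8.5 h (1.77 log2 odds, SE 0.40, adjusted p = 0.0564). It passed when PSI itself was tested (0.0196), with an offset of 0.05 and among annotated introns alone. It missed in the 12 time course libraries (0.0714), in the 4 libraries alone (0.257) and with a replicate block (0.0756). SPO22 had no value at 0 h, in the separate SK1 culture or in libraries labelled dbr1, +rap or -rap. Its own spread thus came from the later times. The course ran from 0.25 and 0.27 at 6 h to 0.97 and 0.95 at 12 h.

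HFM1, a helicase of meiotic crossover formation, had 0.57 and 0.77 at 7.5 h and 0.84 and 0.82 at 8.5 h (adjusted p = 0.368). REC107, required for the double-strand breaks that start recombination, lay the other way, with 0.76 and 0.74 and then 0.64 and 0.57 (adjusted p = 0.368). AMA1, a meiotic activator of the anaphase-promoting complex, hardly differed. Its annotated intron had 0.36 and 0.34 and then 0.37 and 0.37, and its overlapping A5SS event had 0.99 and 0.96 and then 0.98 and 0.99.

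Of 10 events in other meiotic genes, 3 had all 4 values, and none passed or separated the times, with 0 at an unadjusted p under 0.05. SPO1, a phospholipase-like meiotic protein, had 0.32 and 0.35 at 7.5 h and 0.31 and 0.32 at 8.5 h, and 0.89 and 0.92 at 12 h. REC102, also required for double-strand breaks, had 0.84 and 0.83 and then 0.77 and 0.92, after 0.19 and 0.28 at 6 h. SAE3, a partner of the recombinase Dmc1, had 0.69 and 0.52 and then 0.46 and 0.59. These libraries overlap in each gene.

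No event of a ribosomal protein gene passed limma's test, out of 34 measured, and 5 had an unadjusted p under 0.05, a share near the 28 of 202 over all events. The 18 large subunit events had a median difference of 0.0225, with 7 above and 3 below without overlap. The 16 small subunit events had -0.01, with 1 above and 3 below. Both sets hold events other than annotated introns, so no contrast between the subunits is drawn. Over annotated introns alone, 23 measured, 8 lay above and 2 below, with a median of 0.045 beside 0 over all events. Over all 202 events the shares were 16.3% above and 17.3% below. The median PSI of the 23 introns was 0.21 and 0.22 in the 7.5 h libraries and 0.19 and 0.30 in those of 8.5 h. By this median replicate 2 of 8.5 h alone was higher, and replicate 1 lay below both libraries of 7.5 h. The medians of the 18 large subunit events were 0.215 and 0.265, then 0.31 and 0.48. Those of the 16 small subunit events were 0.91 and 0.865, then 0.905 and 0.81.

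The large subunit paralogs RPL34A and RPL34B were the largest of these. RPL34A had 0.68 and 0.48 at 7.5 h and 0.86 and 0.92 at 8.5 h (2.48 log2 odds, SE 0.67, adjusted p = 0.0564), and RPL34B had 0.21 and 0.31 and then 0.40 and 0.68 (adjusted p = 0.182). Each was separated between the times, at different levels of PSI. RPL34A passed when annotated introns alone were tested (adjusted p = 0.0373) and among events with mean PSI from 0.05 to 0.95 (0.0298). It also passed with an offset of 0.05 in the log2 odds (0.0495). It missed with an offset of 0.005 (0.0544), robust moderation (0.0538), a replicate block (0.0756) and PSI itself (0.0878). It also missed in the 12 time course libraries (0.121) and in the 4 libraries alone (0.257). With 1 library left out, its difference ranged from 1.89 to 3.07 log2 odds. The paralogs encode near-identical proteins, so reads could be shared between them.

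RPL18B had 0.57 and 0.48 at 7.5 h and 0.69 and 0.73 at 8.5 h (adjusted p = 0.611). RPL26B had tight pairs, 0.19 and 0.21 and then 0.33 and 0.32 (adjusted p = 0.508). In the small subunit RPS9A had 0.89 and 0.76 and then 0.84 and 0.51, and RPS13 had 0.40 and 0.65 and then 0.65 and 0.54. Both small subunit genes overlapped between the times.

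Among 12 events in introns with known regulation or links to decay, DBP2 rose and none fell, beside 1.49% and 1.98% of all events. The median difference was 0.035, and 3 had an unadjusted p under 0.05, beside 28 of 202. YRA1, the mRNA export adaptor that like DBP2 has a feedback intron, had 0.39 and 0.31 at 7.5 h and 0.24 and 0.28 at 8.5 h (adjusted p = 0.481). Its values thus lay on the other side from those of DBP2. GCR1, the activator of glycolytic genes, had 0.85 and 0.91 and then 0.83 and 0.67 in its annotated intron (adjusted p = 0.24). An overlapping GCR1 event outside the annotation lay the other way in its mean, with 0.64 and 0.47 and then 0.61 and 0.71 (adjusted p = 0.506). In PTC7, a phosphatase whose retained intron is translated, 1 library at 7.5 h stood apart, with 0.90 and 0.54 and then 0.86 and 0.92.

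The 8 events in splicing and RNA processing genes included DBP2, and no other passed. No event passed limma's test among 6 in the cytoskeleton, 3 in mitochondria, 6 in the secretory pathway, 5 in the ubiquitin system or 4 in snoRNA host genes, and of these 1, in the ubiquitin system, had an unadjusted p under 0.05. That event was UBC9, the SUMO-conjugating enzyme, with 0.15 and 0.17 at 7.5 h and 0.09 and 0.10 at 8.5 h (adjusted p = 0.272). RUB1, a ubiquitin-like modifier, had 0.57 and 0.57 and then 0.48 and 0.38. TUB3, an alpha-tubulin, had 0.27 and 0.23 and then 0.37 and 0.38 (adjusted p = 0.487). In each of these 3 the times did not overlap.

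**Figure D5:**
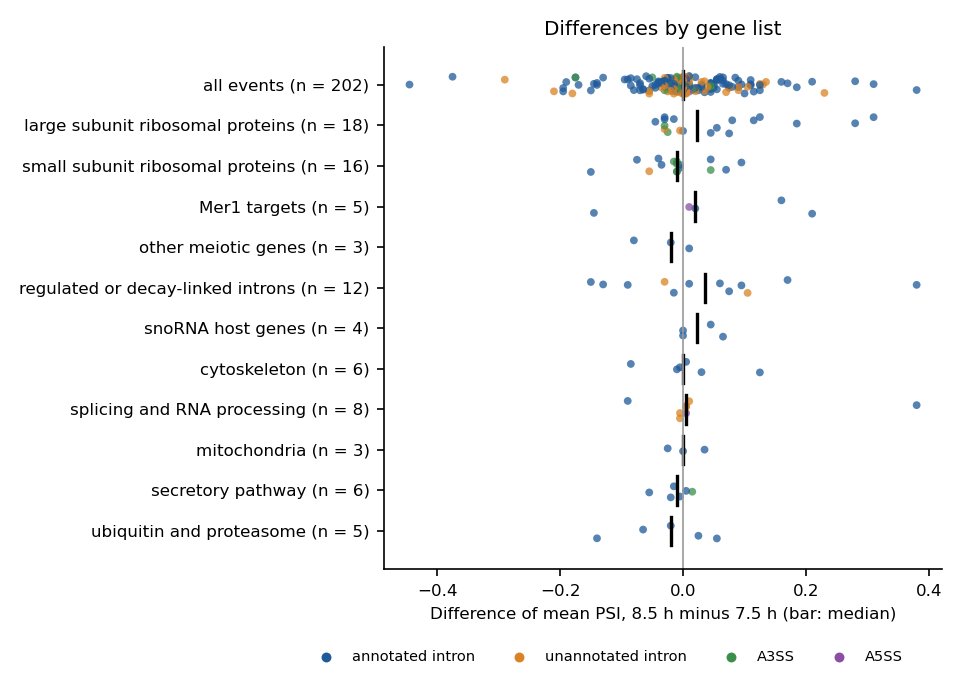
Difference of mean PSI, 8.5 h minus 7.5 h (x axis), for every event of each gene list (rows; points coloured by event type), with the median as a bar. The list medians lie between -0.02 and 0.035, and single events such as DBP2, at 0.38, lie far outside them.

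The hour was also set against its neighbours. The step from 7.5 to 8.5 h differed from the step from 6 to 7.5 h in 13 of 190 events (6.84%) and from the step from 8.5 to 12 h in 22 of 190 (11.6%). The steps span 1.5, 1 and 3.5 h, were not scaled to hours, and share the libraries of 7.5 h or of 8.5 h. On the log2 odds scale the step of this hour was the higher in 9 of the 13 and the lower in 17 of the 22. These counts depend on single libraries. Without replicate 1 of 7.5 h the first was 21 and without replicate 2 it was 5, and the second was 6 without either replicate of 8.5 h.

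Several of these events turned within the course. APE2 went up by 0.41 in its A3SS event from 6 to 7.5 h and down by 0.175 in the next hour. GOT1 went up by 0.74 and then down by 0.445. SPO1 differed by 0.02 within the hour and was then higher by 0.59 at 12 h.

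Annotated introns that separated upward had a longer median length than those that separated downward. The 20 above had a median length of 347.5 bp and the 22 below 96.5 bp, beside 148 bp over all 113. Ribosomal protein introns, with a median of 434 bp, made up 8 of the 20 and 2 of the 22, beside 23 of all 113. Outside ribosomal protein genes the medians were 131.5 bp for 12 and 93.5 bp for 20, beside 114.5 bp over 90. The 20 and 22 of 113 are shares near the 16.3% and 17.3% over all events, and differences as small as 0.02 count among them. No test was made of these lengths, so no trait of changing introns is read from them.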

How the data were processed

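Of 30 libraries in the series, 26 are RNA-seq. The deposited values are PSI, a fraction per event and library. Per the submitters' processing notes, TopHat2, TopHat, Bowtie and sacCer3 were used, with no tool version for them. The Branch-seq and Lariat-seq files were not used here. How PSI was computed and when it is missing is not given in the sources used here, and the depth behind each value is unknown.

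Log2 odds here are log2((PSI + 0.01)/(1 − PSI + 0.01)). A mean per group was fitted over the 20 Ribo-Zero libraries (10 groups) with limma 3.58.1 in R 4.3.3. The groups were the times of the course, the separate SK1 culture, and libraries labelled dbr1, +rap and -rap. The spread behind each p-value was thus estimated partly in libraries of other cells and treatments. Missing values of other groups were dropped event by event. Tests were two-sided moderated tests with Benjamini-Hochberg adjustment over the 202 events, or over the 190 with values at the neighbouring time, at an adjusted p under 0.05. An exact permutation test of 2 libraries against 2 cannot go below 0.333. The fit was tested on simulated data.

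Gene names come from the table's locus tags matched to RefSeq R64, whose coordinates are those of sacCer3. No column of per-sample values was left unmapped.

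Events named were those past the threshold, the 10 highest and 10 lowest differences without overlap, all events of Mer1 targets and other meiotic genes, ACT1, and up to 4 per other list with the largest difference. Single events named for missing values were chosen after their values were seen. The members and lists were chosen with earlier results of these data known. Alternatives were the offset, the scale, the libraries and events fitted, robust moderation, a replicate block and leaving out each library.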

Additional observations from a re-analysis of the deposited data

Results flagged for a closer look

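Each event here was picked out because its change from 7.5 to 8.5 h differed from its change in a neighbouring step by limma's test of the difference itself (Benjamini-Hochberg adjusted p over 190 events). Only the 58 events named by the rule above were considered, many of them named for their difference between 7.5 and 8.5 h. The list is therefore only a part of the 13 and 22 events that differed. The neighbouring steps share libraries with this one, so a deviation of 1 time enters both.

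Against the step from 6 to 7.5 h, the APE2 A3SS event (adjusted p = 1.24e-05) and the annotated APE2 intron (1.35e-05) went up and then down. GOT1 did the same (0.00111). SIP18 (0.00763) and IDP3 (0.0374) went down and then up.

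Against the step from 8.5 to 12 h, YJR079W (5.69e-07) and the event in no gene on chromosome IV (0.0496) went down and then up. DBP2 (0.000686), SIP18 (0.00339), IDP3 (0.00481) and RPL34A (0.00768) went up and then down. MSS51 (0.0187), UBC9 (0.00985) and YIP3 (0.0496), a gene of the secretory pathway, were lower by 8.5 h and higher by 12 h. SPO1 (0.000686) and SEC17 (0.0361), the membrane fusion adaptor, moved by 0.02 in this hour and by 0.59 and 0.215 in the next step. HNT1 (0.0498) and YNL194C (0.046) were higher in both steps, by more in the later one.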

How the results depend on the processing

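The count of 3 higher events became 6 with an offset of 0.05, 5 with the 4 libraries alone (none of them among the 3), 0 with the 12 time course libraries and 5 among events with mean PSI from 0.05 to 0.95. It ranged from 0 to 12 when 1 library was left out, where the lone library of a time is assumed to vary like the other groups. The count of 4 lower events ranged from 3 to 6, but its members changed: both APE2 events were lost with PSI itself and with the 4 libraries alone, and GOT1 with the 12 time course libraries and without each library. The labels do not say what a replicate number marks. Deviations of same-numbered libraries of 7.5 and 8.5 h correlated at -0.241 over 202 events, and those of the 15 pairs of times at -0.345 to 0.257, so no pairing was assumed. With the replicate block 4 events were higher and 4 lower. A crossed replicate block, chosen after seeing the data, gave 6 higher and 5 lower. The 13 events that differed from the earlier step became 4 among annotated introns alone, and ranged from 5 to 21 without 1 library. The 22 that differed from the later step became 14 with an offset of 0.005, 13 among annotated introns and 14 with robust moderation, and ranged from 6 to 19. The cause of these shifts was not tested. Of 795 alternative values of the 58 named events, 735 kept their direction and side of the threshold, 18 newly passed, 24 no longer passed and 18 changed sign. The estimate stays the same by construction when only the spread, the events tested, the replicate block or the rule of 0.1 differs. Direction could not change in those alternatives, so the 735 are no measure of robustness. All sign changes were in events that missed the threshold, with 1 library left out. Their log2 odds ranged from -0.104 to 0.289 in ACT1, -0.30 to 1.07 in the AMA1 A5SS event, -1.53 to 0.333 in CIN2, -0.392 to 0.326 in EFB1, -0.315 to 0.0059 in PFY1, -0.0957 to 2.73 in PTC7, -0.572 to 1.1 in REC102, -0.277 to 0.312 in RIM1, -0.324 to 1.12 in RPS13, -0.0119 to 1.52 in RPS14B, -2.21 to 0.057 in RPS9A, -0.985 to 0.0307 in SAE3, -0.327 to 0.942 in UBC13 and -0.0002 to 0.177 in VMA9. Depth is unknown, so its limit on single values cannot be given.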
